A study of Mus musculus with 8 samples.

Results

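Ribosome biogenesis genes were examined in AML12 cells, a line of mouse hepatocytes derived from an animal that carried a human TGFA transgene. The genes were 43 nucleolar and rRNA processing genes listed by symbol, all of which were found among the 55401 genes of the deposited tables. The list was chosen with earlier results of these data known. Control cells (4 dishes) were compared with cells incubated for 1 h under Opti-ELF-WMF (4 dishes, called exposed here), an extremely low-frequency weak magnetic field given as 4 ms pulses at 1 to 8 Hz with a peak of 100 mG. The labels name no other agent for either group. For its cell experiments in general, the paper states that control and exposed cells were taken from a single batch. Control cells stood in another incubator of the same model with the stimulator off, so field and incubator cannot be told apart. Whether the 4 dishes of each group shared 1 batch is not stated there. If they did, the p-values measure only the spread between dishes of one culture.

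Ribosomes are built in the nucleolus, where RNA polymerase I transcribes a long precursor of the 18S, 5.8S and 28S rRNAs. Small nucleolar RNAs and their core proteins guide chemical modification of this precursor, the small subunit processome folds and cuts the 18S part, and other factors assemble the large subunit. In liver and in hepatocyte lines, as elsewhere, the output of this machinery is known to follow growth signals, and many of its genes are known targets of the transcription factor MYC.

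Poly(A) RNA had been sequenced, and the authors deposited TPM, a measure of transcript abundance that divides reads by transcript length and sums to 1000000 in each dish, so the sequencing depth is unknown. Each dish held 19386 to 20114 genes above 0. All 9 hepatocyte markers reached 1 TPM, Alb, the gene of serum albumin, among them. Krt8 and Krt18 held most of their sum, with means of 2305 and 1967 TPM, and Apoa1 was lowest at 4.16 TPM. In a dish, 1 of the 5 fibroblast markers and 1 of the 5 macrophage markers also reached 1 TPM. The 4 endothelial markers summed to at most 0.08 TPM, the fibroblast markers to at most 1.6 TPM and the macrophage markers to at most 2.34 TPM in any dish. A difference in a bulk sample cannot tell a change in the number of cells of a kind from a change in RNA per cell.

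All 43 nucleolar genes had a higher mean TPM in the exposed dishes than in the control dishes and a log2 fold change above 0, which 63.7% of all genes tested had. The differences of the means ran from 1.499% for Pes1 to 14.96% for Gar1, with a median of 7.30%, and 10 genes differed by more than 10%. None of the 43 passed limma with Benjamini-Hochberg adjustment over the 12122 genes tested (smallest adjusted p = 0.122, shared by 8 of the genes). The background for that threshold was 0%, since no gene of the whole table passed it (smallest adjusted p = 0.0572). The differences are therefore given as values, and none is called a change.

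Because the 43 genes were chosen with earlier results known, their shares below are not an independent comparison with all genes. At an unadjusted limma p under 0.05, 30 of the 43 genes (69.8%) were higher and 0 were lower, where 12% of all genes tested were higher and 3.65% lower. In 26 of the 43 (60.5%) every exposed dish lay above every control dish, against 8.01% of all genes tested, and 0 lay wholly below, against 1.86%. The median log2 fold change of TPM + 1 was 0.10 for the nucleolar genes and 0.026 for all genes tested. The nucleolar genes are abundant, with mean levels of 24.5 to 1036 TPM and a median of 94.8 TPM, where the median of all genes tested was 21.9 TPM. Abundant genes were higher more often: among the 5686 genes with a mean TPM of at least that of the least abundant nucleolar gene, 77.5% had a higher mean, 21.2% were higher at the unadjusted threshold, 14.1% had groups that did not overlap in that direction, and the median log2 fold change was 0.042.

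Because TPM sums to a fixed total, a difference in one abundant class of transcripts shifts the share of all others. Transcripts of the mitochondrial genome took 8.94 ± 0.336% of TPM in control and 7.04 ± 0.765% in exposed dishes (SD, n = 4 each). After median-of-ratios scaling, which divides each dish by its median ratio over genes above 0 in every dish, 42 of the 43 genes were still higher in exposed dishes, the exception being Pes1 (log2 fold change -0.0016), as were 52.8% of all genes tested. In the scaled values 23 of the 43 (53.5%) were higher at an unadjusted limma p under 0.05 and 0 were lower, against 6.79% of all genes tested higher and 5.52% lower. Their groups did not overlap in 18 genes (41.9%), with the exposed dishes above, against 4.58% of all genes tested (3.37% below), and the median log2 fold change was 0.079, beside 0.0050 for all genes tested. Among the 5686 abundant genes the scaled values were higher in 64.4%, passed the unadjusted threshold upward in 11.4% and did not overlap in 7.95%, with a median of 0.020. No nucleolar gene passed the adjusted threshold in the scaled values (smallest adjusted p = 0.203 by limma), where the background was 0% for higher and 0.00825%, or 1 gene, for lower. When the values were instead rescaled without mitochondrial genes, 20 of the 43 were higher at the unadjusted threshold, 14 had groups that did not overlap, and the median log2 fold change was 0.072. Over all genes tested in that setting, 693 were higher and 675 lower at the unadjusted threshold, with a median of -0.0015. Groups that did not overlap were not counted over all genes there.

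**Figure D1:**
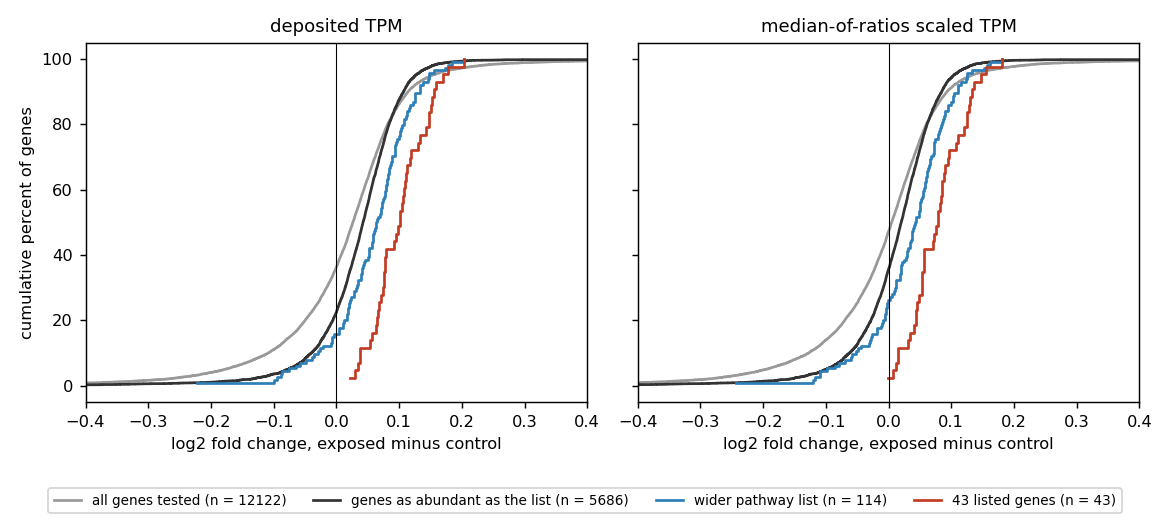
Cumulative percent of genes (vertical axis) against log2 fold change of TPM + 1, exposed minus control (horizontal axis), for deposited TPM on the left and after median-of-ratios scaling on the right. In both panels the curve of the 43 nucleolar genes lies to the right of the other curves over most of its length. Its medians are 0.10 on the left and 0.079 on the right. The others are all genes tested (n = 12122), the 114 further ribosome biogenesis genes and the 5686 genes at or above an abundance floor. That floor is the mean TPM of the least abundant of the 43, and the 5686 genes were not otherwise matched in abundance.

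Seen dish by dish, the 43 genes together held 5986, 5835, 5798 and 5935 TPM in the control dishes and 6366, 6435, 6256 and 6296 TPM in the exposed dishes. The means were 5889 ± 87.0 TPM and 6338 ± 78.9 TPM (SD, n = 4 each), and the lowest exposed dish lay above the highest control dish. As a share of all TPM the sums were 0.580% to 0.599% in control and 0.626% to 0.644% in exposed dishes. Averaged over the 43 genes, the log2 difference from the control mean was 0.093, 0.14, 0.088 and 0.084 in exposed dishes 1 to 4, and lay between -0.018 and 0.016 in the control dishes. Exposed dish 2 held the highest TPM of 27 of the 43 genes and also the lowest mitochondrial share, 5.99%. In the scaled values that place was taken by exposed dish 1, which was highest for 23 genes, while exposed dish 2 was highest for 8. Without exposed dish 2, 23 genes were higher at an unadjusted limma p under 0.05 and the median log2 fold change was 0.079. Over all 12122 genes tested, 1066 were then higher, beside 1451 with all dishes, and the median was 0.0156, beside 0.0263. The spread between dishes was small, with a median coefficient of variation over the 43 genes of 2.48% in control and 3.06% in exposed dishes.

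**Figure D2:**
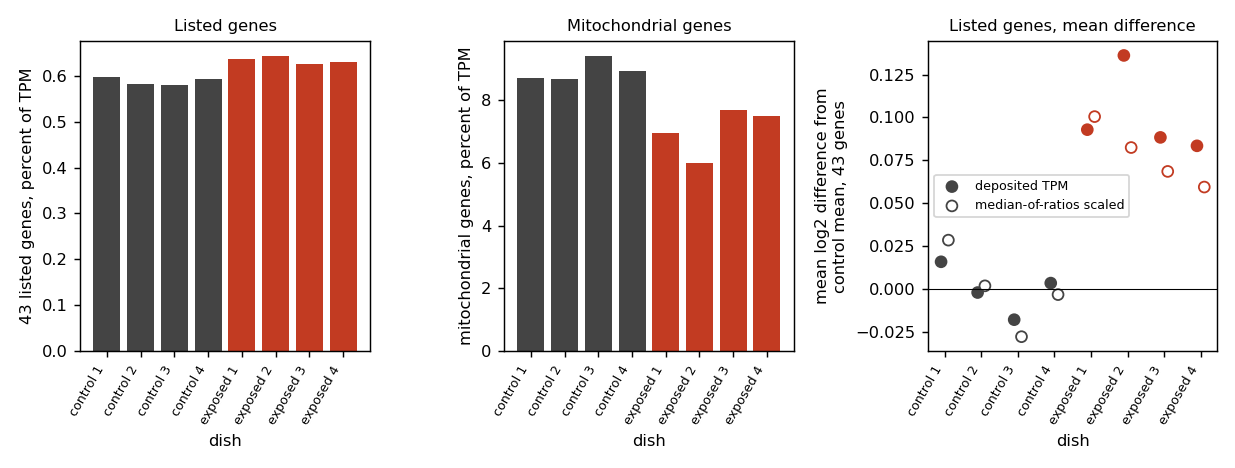
Left, summed TPM of the 43 nucleolar genes as percent of all TPM in each dish; middle, percent of TPM from mitochondrial genes in each dish; right, mean log2 difference of the 43 genes from the control mean in each dish, for deposited (filled) and median-of-ratios scaled (open) values. The exposed dishes (red) sit at 0.626% to 0.644% on the left against 0.580% to 0.599% in control dishes (grey), and their mitochondrial shares sit between 5.99% and 7.69% against 8.69% to 9.42%.

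The 43 genes lie on 17 chromosomes. RefSeq promoters on GRCm38.p6 (250 bases before to 50 after each start site) were matched for 38 of the 43 genes. These 38 genes have 41 promoter entries. In 31 of them the bases 6 to 35 after the start site stood in a GENCODE transcript of the gene. The E-box CACGTG, the palindromic motif that MYC and its partner MAX are known to bind, was searched on both strands. It stood in a promoter of 8 of the 38 genes (21.1%) and of 12.1% of the genes tested that had a promoter entry. Of all promoter entries, counted singly and not by gene, 7.15% held it. The variant CACGCG or its reverse complement CGCGTG stood in a promoter of 34.2% of the 38 nucleolar genes and 20.6% of the genes tested, and in 9.27% of all promoter entries. The motif CCGGAAG or CTTCCGG, chosen after the sequences were seen, stood in 34.2%, 22% and 8.86%. The median log2 fold change of TPM + 1 was 0.10 for the 8 genes with CACGTG (Imp4, Nop2, Utp18, Pes1, Utp4, Wdr43, Utp20 and Mybbp1a) and 0.095 for the 30 without. The 200 bases before the start site are given 5′ to 3′ on the strand of the gene for the 3 genes with CACGTG in that stretch, with the motif in capitals, and for Pa2g4 and Ncl, the genes with the smallest p-values, whose windows hold none.
Imp4 (chr1:34439629-34439828, plus strand): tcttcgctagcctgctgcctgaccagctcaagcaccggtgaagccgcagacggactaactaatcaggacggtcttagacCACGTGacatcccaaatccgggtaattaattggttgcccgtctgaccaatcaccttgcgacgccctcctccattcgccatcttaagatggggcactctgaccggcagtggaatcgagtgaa
Nop2 (chr6:125131683-125131882, plus strand): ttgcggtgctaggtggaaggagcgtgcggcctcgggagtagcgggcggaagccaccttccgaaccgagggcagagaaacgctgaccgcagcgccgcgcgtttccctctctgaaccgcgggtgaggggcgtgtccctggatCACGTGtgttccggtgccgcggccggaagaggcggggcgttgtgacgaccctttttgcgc
Utp18 (chr11:93885767-93885966, minus strand): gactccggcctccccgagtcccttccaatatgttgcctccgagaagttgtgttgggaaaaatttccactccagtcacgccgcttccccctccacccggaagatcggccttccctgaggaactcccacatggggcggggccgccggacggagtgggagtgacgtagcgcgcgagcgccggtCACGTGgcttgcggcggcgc
Pa2g4 (chr10:128565935-128566134, minus strand): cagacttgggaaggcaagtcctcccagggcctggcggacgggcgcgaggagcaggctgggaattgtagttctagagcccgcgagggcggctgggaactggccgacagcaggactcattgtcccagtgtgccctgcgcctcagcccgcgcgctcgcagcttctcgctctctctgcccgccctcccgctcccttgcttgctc
Ncl (chr1:86359456-86359655, minus strand): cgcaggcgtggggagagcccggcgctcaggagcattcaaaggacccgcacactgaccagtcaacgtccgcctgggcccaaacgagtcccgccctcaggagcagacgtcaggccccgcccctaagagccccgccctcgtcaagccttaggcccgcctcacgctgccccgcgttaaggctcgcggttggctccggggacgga
In these windows CACGTG begins 121 bases before the start site of Imp4, 60 before that of Nop2 and 20 before that of Utp18. The 3 genes cover much of the range of differences, with log2 fold changes of 0.18, 0.10 and 0.034. The RefSeq start sites of Imp4, Nop2 and Ncl lie before the GENCODE starts of these genes, so such distances depend on the annotation used.

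In the group of abundant nucleolar proteins and helicases every gene had exposed dishes wholly above the control dishes. All 7 had groups that did not overlap and an unadjusted limma p under 0.05, with log2 fold changes between 0.11 and 0.15. After median-of-ratios scaling the p of all 7 stayed under 0.05, and the groups of 5 did not overlap. Over all genes tested, 12% were higher at that p and 8.01% did not overlap upward in TPM, and 6.79% and 4.58% after scaling. Among the 5686 abundant genes these shares were 21.2% and 14.1% in TPM, and 11.4% and 7.95% after scaling. Pa2g4, which encodes a growth-regulated protein that binds pre-ribosomes, had 242, 232, 233 and 235 TPM in the control dishes and 259, 258, 258 and 257 TPM in the exposed dishes. All exposed dishes lay within 3 TPM of each other and above the highest control dish (log2 fold change 0.13 ± 0.022 (SE), limma unadjusted p = 0.000171, adjusted p = 0.122). Ncl encodes nucleolin, a major RNA-binding protein of the nucleolus, and had 603, 577, 572 and 596 TPM in the control dishes and 649, 650.5, 636 and 641 TPM in the exposed dishes. The groups did not overlap, and control dishes 1 and 4 were the higher ones of their group (log2 fold change 0.13 ± 0.024 (SE), limma unadjusted p = 0.000236, adjusted p = 0.122). Nolc1 encodes a chaperone of small nucleolar ribonucleoproteins that shuttles to Cajal bodies, and had 207, 215, 209.9 and 216 TPM in the control dishes and 234, 244, 233 and 227 TPM in the exposed dishes. Exposed dish 2 was the highest and every control dish lay below every exposed dish (log2 fold change 0.15 ± 0.028 (SE), limma unadjusted p = 0.000386, adjusted p = 0.122). In the scaled values Nolc1 had the smallest p-value of the nucleolar genes (log2 fold change 0.12, limma unadjusted p = 0.000713).

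Ddx21 encodes an RNA helicase that acts in rRNA transcription and processing, and had 107, 106, 107 and 109.8 TPM in the control dishes and 114, 117, 116 and 115 TPM in the exposed dishes. Both groups were tight and did not overlap (log2 fold change 0.11 ± 0.024 (SE), limma unadjusted p = 0.00095, adjusted p = 0.122). Npm1 encodes nucleophosmin, the abundant chaperone of the outer nucleolus, and was the most abundant of the 43 genes, with 1029.9, 957, 982 and 1022 TPM in the control dishes and 1101, 1069.7, 1041 and 1089 TPM in the exposed dishes. Every exposed dish was above every control dish in TPM (log2 fold change 0.11 ± 0.030 (SE), limma unadjusted p = 0.00494, adjusted p = 0.149), but the groups overlapped after scaling (log2 fold change 0.086, limma unadjusted p = 0.0355). Npm1 has 4 near-identical copies elsewhere in the genome, with which reads may be shared, and of these Gm9118 had the highest TPM. The copies together held 315 to 375 TPM per dish, or 33.5% of the mean of Npm1, so its own level is uncertain. With the copies added, the means were 1325 TPM in control and 1442 TPM in exposed dishes, the log2 fold change was 0.12, and the groups did not overlap. Mybbp1a, which encodes a nucleolar repressor that binds MYB, and Gnl3, which encodes the GTPase nucleostemin, had log2 fold changes of 0.11 ± 0.030 and 0.11 ± 0.033 (SE). Groups of Mybbp1a also stood apart after scaling, while those of Gnl3 overlapped.

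**Figure D3:**
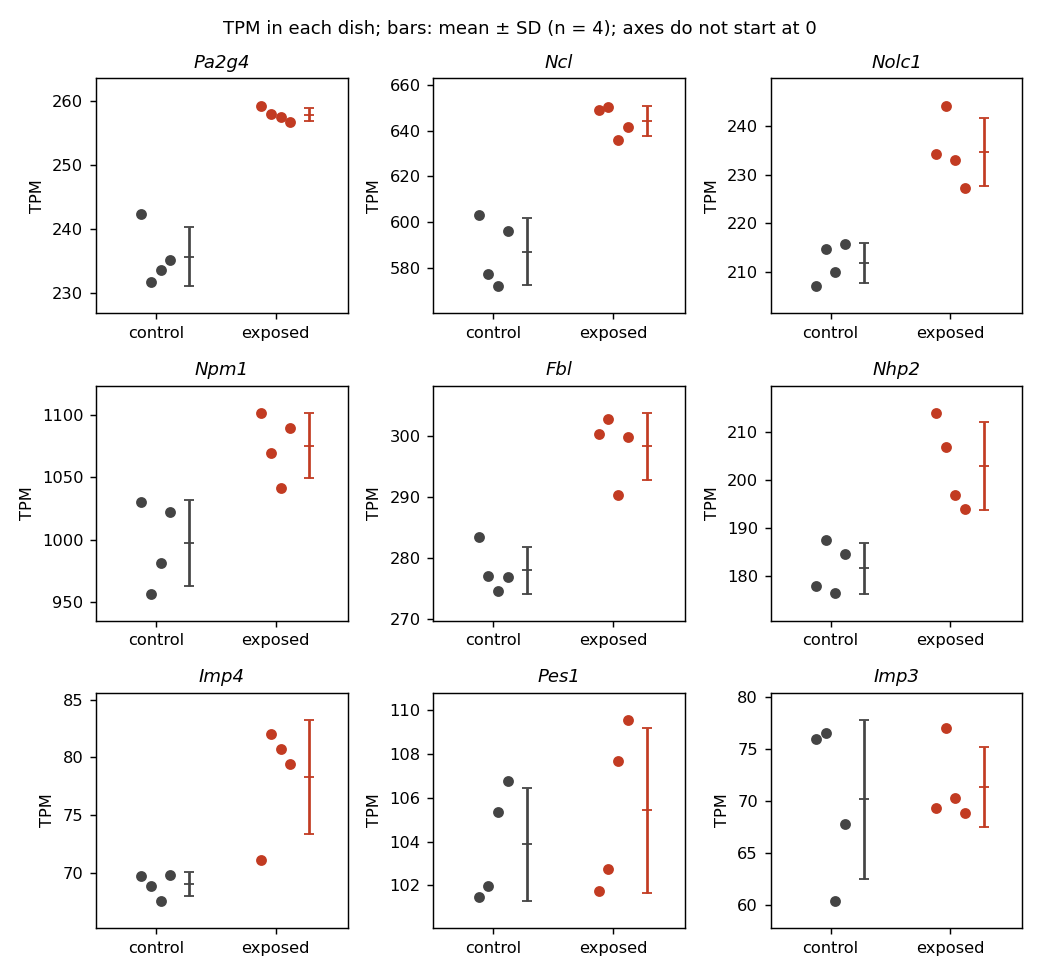
TPM in each dish (points) with mean ± SD (bars, n = 4) for 9 nucleolar genes in control (grey) and exposed (red) dishes; the vertical axes do not start at 0. For the first 7 genes, Pa2g4 to Imp4, every exposed dish lies above every control dish, whereas the groups of Pes1 and Imp3 overlap.

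Core proteins of the box H/ACA particles, which turn uridines of rRNA into pseudouridine, had the highest median difference of the 6 role groups, a log2 fold change of 0.15 over 4 genes. All 4 had an unadjusted limma p under 0.05, and 3 had groups that did not overlap. After scaling both counts were 3, the gene lost from the first being Nop10. The shares of all genes tested, in the upward direction, were 12% and 8.01% in TPM, and 6.79% and 4.58% after scaling. Gar1 encodes the core protein that aids turnover of the enzyme, and had 101, 99.4, 82.7 and 96.4 TPM in the control dishes and 107, 108, 113 and 107 TPM in the exposed dishes. Control dish 3 was well below the rest of its group and exposed dish 3 above the rest of its own (log2 fold change 0.20 ± 0.057 (SE), limma unadjusted p = 0.00574, adjusted p = 0.155). Without control dish 3 the log2 fold change of Gar1 was 0.14. Nhp2 encodes an RNA-binding core protein, and had 178, 187, 176 and 185 TPM in the control dishes and 214, 207, 197 and 194 TPM in the exposed dishes. The groups did not overlap, and exposed dish 1 was the highest (log2 fold change 0.16 ± 0.036 (SE), limma unadjusted p = 0.00144, adjusted p = 0.122). Dkc1 encodes dyskerin, the pseudouridine synthase itself, and had 94.5, 94.8, 99.0 and 95.5 TPM in the control dishes and 102, 112, 108 and 102 TPM in the exposed dishes. Exposed dishes 2 and 3 stood above exposed dishes 1 and 4, and all 4 lay above the control dishes (log2 fold change 0.14 ± 0.036 (SE), limma unadjusted p = 0.00281, adjusted p = 0.134). Nop10, the smallest core protein, had overlapping groups, with 126 ± 3.86 TPM in control and 133 ± 3.34 TPM in exposed dishes (SD, n = 4 each) and a log2 fold change of 0.077 ± 0.030 (SE).

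Core proteins of the box C/D particles, which place 2′-O-methyl groups on rRNA, had mean levels of 288 to 394 TPM and a median log2 fold change of 0.080 over 3 genes. Fbl encodes fibrillarin, the methyltransferase, and had 283, 277, 275 and 277 TPM in the control dishes and 300.2, 303, 290.3 and 299.8 TPM in the exposed dishes. The groups did not overlap, with exposed dish 3 the lowest of its group (log2 fold change 0.10 ± 0.023 (SE), limma unadjusted p = 0.00134, adjusted p = 0.122). Nop58 encodes a scaffold protein of the particle, and had 395, 374, 376 and 386 TPM in the control dishes and 414, 409, 394 and 401 TPM in the exposed dishes. Control dish 1 was above exposed dish 3, so the groups overlapped (log2 fold change 0.080 ± 0.026 (SE), limma unadjusted p = 0.013, adjusted p = 0.192). Its partner scaffold Nop56 also overlapped, with 324 ± 7.91 TPM in control and 338 ± 7.77 TPM in exposed dishes (SD, n = 4 each) and a log2 fold change of 0.064 ± 0.026 (SE). After scaling, Fbl alone of the 3 had an unadjusted limma p under 0.05 (0.0116). Nop56 has 1 near-identical copy, Gm49739, which was listed at 0 in 4 dishes and reached 34.6 TPM in exposed dish 2. With it added the log2 fold change of Nop56 was 0.081.

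RNA polymerase I, the enzyme that makes the rRNA precursor, was represented by 3 subunits with log2 fold changes of 0.075 to 0.098. Polr1b encodes its second-largest subunit, and had 32.1, 31.8, 34.3 and 32.6 TPM in the control dishes and 34.6, 35.9, 34.6 and 34.6 TPM in the exposed dishes. Exposed dish 2 stood above the others of its group, and the lowest exposed dish was 0.23 TPM above control dish 3 (log2 fold change 0.092 ± 0.035 (SE), limma unadjusted p = 0.0244, adjusted p = 0.239). That gap was lost after scaling. Polr1a, which encodes the largest subunit, had 85.8 ± 1.08 TPM in control and 92.0 ± 6.23 TPM in exposed dishes (SD, n = 4 each), and exposed dish 1, at 83.6 TPM, was below every control dish. Its log2 fold change was 0.098 ± 0.045 (SE), with a 95% interval of -0.0026 to 0.20. Polr1c, whose product is shared with RNA polymerase III, had an interval of -0.011 to 0.16. These intervals include 0 and also differences larger than the median of the 43 genes.

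**Figure D4:**
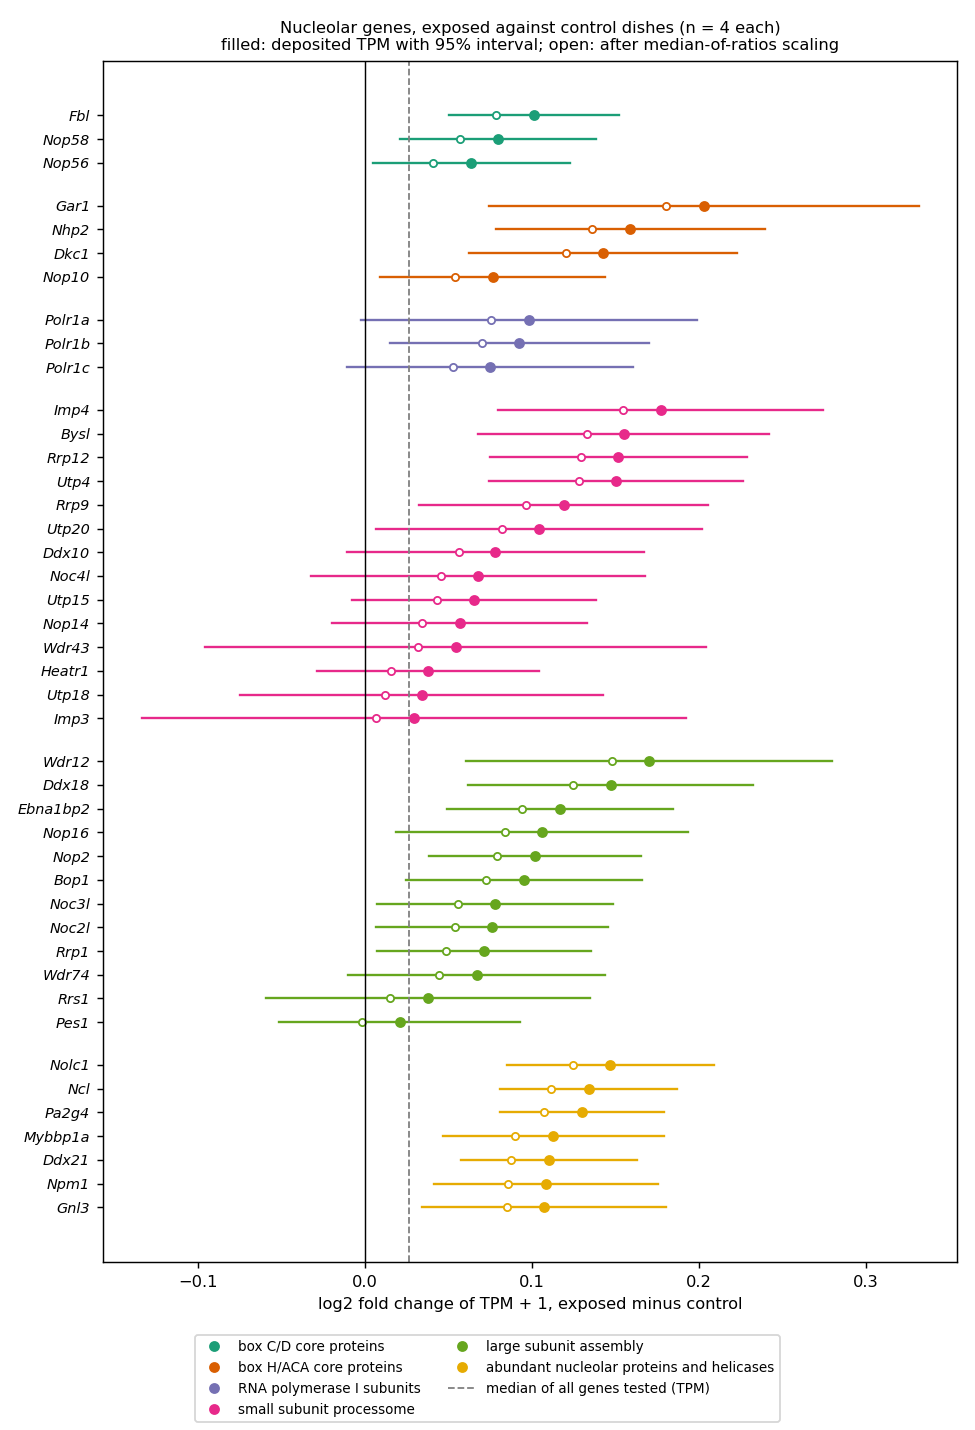
Log2 fold change of TPM + 1, exposed minus control (horizontal axis), for each of the 43 nucleolar genes, grouped and coloured by role, with 95% intervals from limma (n = 4 each); filled points are deposited TPM, open points median-of-ratios scaled values, and the dashed line is the median of all genes tested, 0.026. All filled points lie to the right of 0, from 0.021 for Pes1 to 0.20 for Gar1, and 30 of the 43 intervals exclude 0.

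Genes of the small subunit processome and its late partners varied among themselves. Of 14 genes, 6 had an unadjusted limma p under 0.05, 7 had groups that did not overlap, and the median log2 fold change was 0.073. After scaling the counts were 6 and 5, with a median of 0.051. The upward shares of all genes tested were 12% and 8.01% in TPM, and 6.79% and 4.58% after scaling. Imp4 encodes a protein that joins the U3 small nucleolar RNA to the precursor, and had 69.8, 68.9, 67.6 and 69.9 TPM in the control dishes and 71.1, 82.0, 80.7 and 79.5 TPM in the exposed dishes. Exposed dish 1 was only 1.25 TPM above the highest control dish while the others stood well clear (log2 fold change 0.18 ± 0.044 (SE), limma unadjusted p = 0.00241, adjusted p = 0.131). Imp3, its partner on U3, had 76.0, 76.6, 60.4 and 67.8 TPM in the control dishes and 69.3, 77.1, 70.3 and 68.9 TPM in the exposed dishes. Its groups overlapped widely, control dish 3 was the lowest of all, and the 95% interval of the log2 fold change was -0.13 to 0.19. Without control dish 3 the log2 fold change of Imp3 was -0.040, and without exposed dish 2 it was -0.0077, so its direction rests on single dishes.

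Utp4 encodes a subunit of the complex that loads first on the nascent precursor, and had 49.6, 47.0, 48.0 and 48.8 TPM in the control dishes and 54.0, 56.4, 52.4 and 52.3 TPM in the exposed dishes. Exposed dish 2 was the highest and the groups did not overlap (log2 fold change 0.15 ± 0.034 (SE), limma unadjusted p = 0.00142, adjusted p = 0.122). Rrp12 encodes a HEAT-repeat protein of late pre-ribosomes and their export, and had 53.8, 55.9, 57.3 and 57.9 TPM in the control dishes and 62.1, 65.4, 61.7 and 61.0 TPM in the exposed dishes. Control dish 1 was the lowest and all exposed dishes lay above 61 TPM (log2 fold change 0.15 ± 0.034 (SE), limma unadjusted p = 0.00143, adjusted p = 0.122). Bysl encodes bystin, which acts late in 40S maturation, and was the least abundant of the 43 genes, with 23.5, 22.6, 22.8 and 23.5 TPM in the control dishes and 26.5, 26.8, 24.5 and 25.6 TPM in the exposed dishes. The groups stood 0.98 TPM apart at their nearest (log2 fold change 0.16 ± 0.039 (SE), limma unadjusted p = 0.00279, adjusted p = 0.134). Rrp9, a protein specific to the U3 particle, and Utp20, a scaffold of the processome, completed the 6 genes, with log2 fold changes of 0.12 and 0.10.

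Utp15 and Heatr1, further members of the complex to which Utp4 belongs, had groups that did not overlap although their unadjusted limma p-values were 0.0754 and 0.235. The gaps between their groups were small, 0.04 TPM for Utp15 and 0.15 TPM for Heatr1, and both pairs of groups overlapped after scaling (limma unadjusted p = 0.187 and 0.586). Wdr43, of the same complex, had 105, 103, 93.0 and 98.1 TPM in the control dishes and 108, 115, 103 and 91.0 TPM in the exposed dishes. Exposed dish 4 was the lowest of all 8 dishes and exposed dish 2 the highest, and the 95% interval was -0.096 to 0.20. The other genes of the group, Ddx10, Nop14, Noc4l and Utp18, had log2 fold changes of 0.078, 0.057, 0.068 and 0.034 and overlapping groups.

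Among the 12 large subunit assembly factors, 9 had an unadjusted limma p under 0.05, 7 had groups that did not overlap, and the median log2 fold change was 0.087. After scaling these counts were 5 and 4, with a median of 0.064. Nop16, Rrp1, Noc3l and Noc2l then had an unadjusted p above 0.05, and the groups of Wdr12, Ddx18 and Noc2l overlapped. For all genes tested the upward shares were 12% and 8.01% in TPM, and 6.79% and 4.58% after scaling. Ebna1bp2 encodes an early assembly factor, and had 107, 102, 102 and 106 TPM in the control dishes and 113, 118, 110.5 and 112 TPM in the exposed dishes. The groups did not overlap and exposed dish 2 was the highest (log2 fold change 0.12 ± 0.030 (SE), limma unadjusted p = 0.00335, adjusted p = 0.139). Noc3l, which encodes a factor of early 60S precursors, was the least abundant of these 12, with 27.1, 27.6, 26.4 and 26.7 TPM in the control dishes and 28.3, 29.1, 28.4 and 28.3 TPM in the exposed dishes. Exposed dish 2 stood above the others, which lay within 0.1 TPM of each other, and the groups did not overlap (log2 fold change 0.078 ± 0.032 (SE), limma unadjusted p = 0.0346, adjusted p = 0.273). Its scaled log2 fold change was 0.056, with a limma unadjusted p of 0.102.

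The PeBoW complex, needed for maturation of the 28S and 5.8S rRNAs, consists of Pes1, Bop1 and Wdr12. Wdr12 had 43.6, 47.7, 49.2 and 43.7 TPM in the control dishes and 52.7, 49.2, 54.6 and 51.0 TPM in the exposed dishes. Exposed dish 2 lay only 0.02 TPM above control dish 3, and the log2 fold change was 0.17 with a 95% interval of 0.060 to 0.28. Bop1 had 91.9 ± 1.52 TPM in control and 98.3 ± 3.72 TPM in exposed dishes (SD, n = 4 each) and an interval of 0.025 to 0.17. Pes1 had 101, 102, 105 and 107 TPM in the control dishes and 102, 103, 108 and 109.6 TPM in the exposed dishes. Its groups overlapped over most of their range, and its interval was -0.051 to 0.093. The differences between the 3 genes were not tested.

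The other large subunit factors included Ddx18, a helicase, at a log2 fold change of 0.15 ± 0.038, and Nop2, an rRNA cytosine methyltransferase, at 0.10 ± 0.028 (SE). Both had groups that did not overlap in TPM, and those of Nop2 did not overlap after scaling either. Nop16, Rrp1 and Noc2l had log2 fold changes of 0.11, 0.071 and 0.076 with an unadjusted limma p under 0.05, and of these Noc2l alone had groups that did not overlap. Wdr74 and Rrs1, at 0.067 and 0.038, had intervals that included 0.

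**Figure D5:**
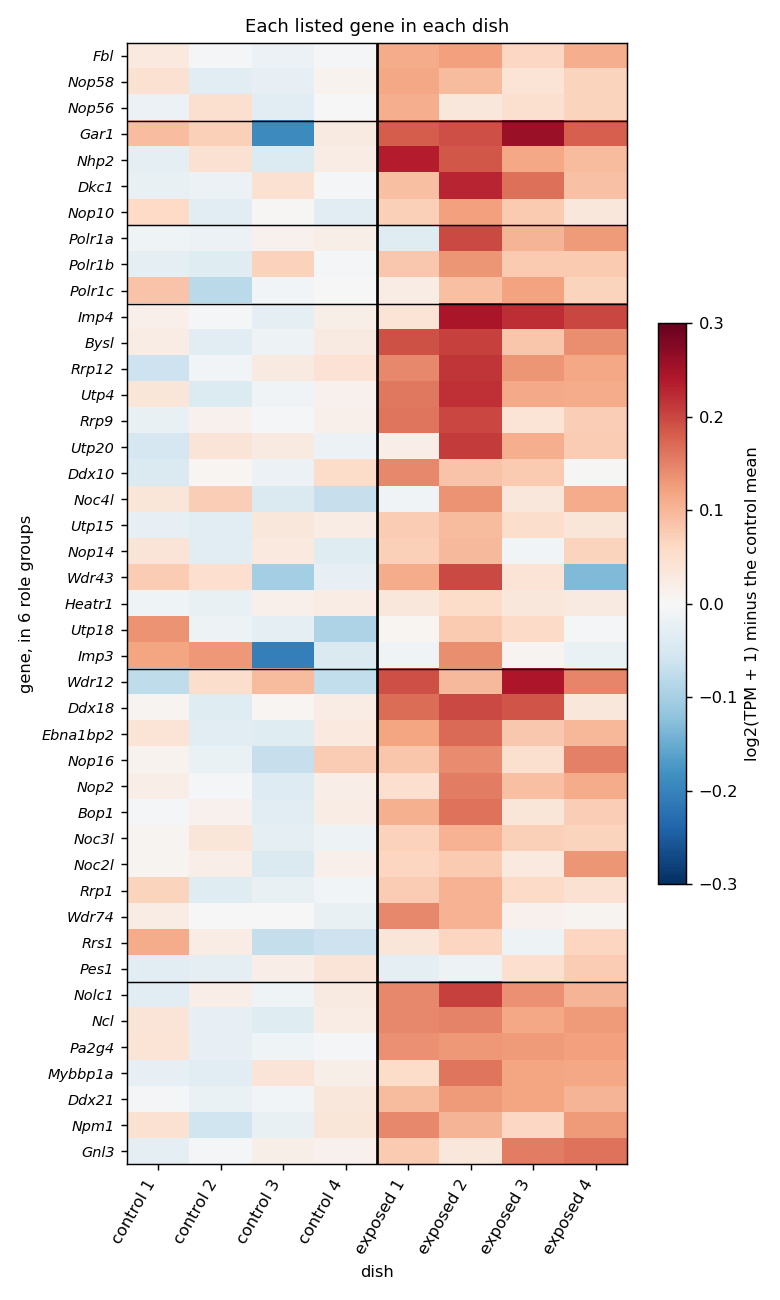
Log2(TPM + 1) of each of the 43 nucleolar genes (rows, in 6 role groups) in each of the 8 dishes (columns) minus the mean of the control dishes; red is above and blue below the control mean. The exposed dishes are red in nearly all rows, most deeply in exposed dish 2, which was highest for 27 genes, with blue cells such as Wdr43 in exposed dish 4 and Polr1a in exposed dish 1.

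Several nucleolar genes hold small nucleolar RNA genes inside them, which makes the transcript a host as well as a messenger. In the GENCODE M21 annotation on GRCm38, 6 of the 43 (14.0%) hold 19 such genes, against 1.88% of the genes tested: Nop56, Nop58, Ncl, Gnl3, Wdr43 and Dkc1. The median log2 fold change was 0.094 for these 6 genes and 0.10 for the other 37. Exons of 16 of the 43 genes overlap those of a gene on the opposite strand, among them Bysl with Ccnd3, Nhp2 with Rmnd5b and Dkc1 with Mpp1. The kit marked strand, but the strand setting of the counting is not given in the sources used here, so such reads may be shared. An unadjusted limma p under 0.05 was found for 11 of these 16 genes and for 19 of the 27 without such an overlap. Among all genes tested, 12% were higher and 3.65% lower at that threshold.

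A further list of 115 ribosome biogenesis genes was examined beside the 43, and 114 of them could be tested. None passed limma with adjustment over all genes, while 36 (31.6%) were higher and 2 lower at an unadjusted p under 0.05 (background 12% and 3.65%), with a median log2 fold change of 0.064. After scaling, 21 (18.4%) were higher and 4 lower (background 6.79% and 5.52%), with a median of 0.043. Among the 5686 genes with a mean TPM of at least that of the least abundant of the 43, 21.2% were higher in TPM and 11.4% after scaling. Some genes of the further list lie below that floor. The further list, too, was chosen with earlier results of these data known. In TPM, small subunit factors had 13 of 39 higher and 0 lower, and after scaling 7 higher and 0 lower. Large subunit factors had 15 of 41 higher and 0 lower in TPM, but 9 higher and 2 lower after scaling. Assembly factors of small nucleolar ribonucleoproteins had 2 of 8 higher under both. The nuclear exosome, which trims rRNA precursors, had 4 of 13 higher in TPM and 2 after scaling. Genes of RNA polymerase I transcription had 2 of 13 higher and 2 lower in TPM, with a median of 0.039, and 1 higher and 2 lower after scaling.

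The smallest p-value of this list belonged to Tcof1, which encodes treacle, a nucleolar cofactor of RNA polymerase I, with 43.2, 43.4, 42.3 and 44.6 TPM in the control dishes and 48.7, 49.1, 47.4 and 47.4 TPM in the exposed dishes. The groups did not overlap (log2 fold change 0.15 ± 0.030 (SE), limma unadjusted p = 0.000611, adjusted p = 0.122). Rrp15, a large subunit factor, had a log2 fold change of 0.11 ± 0.024, and Mphosph10, which binds Imp3 and Imp4 on the U3 particle, had 0.12 ± 0.026 (SE). In the other direction Ttf1, which encodes the factor that ends transcription by RNA polymerase I, had 16.7, 17.7, 15.6 and 14.2 TPM in the control dishes and 13.0, 13.9, 14.0 and 13.4 TPM in the exposed dishes. The highest exposed dish was below the lowest control dish (log2 fold change -0.22 ± 0.064 (SE), limma unadjusted p = 0.00622, adjusted p = 0.16). Taf1d, of the promoter selectivity factor for RNA polymerase I, had 91.3, 93.9, 98.9 and 91.5 TPM in the control dishes and 85.2, 83.8, 93.9 and 88.7 TPM in the exposed dishes. Exposed dish 3 was above 3 of the control dishes, so the groups overlapped (log2 fold change -0.095 ± 0.041 (SE), limma unadjusted p = 0.0463, adjusted p = 0.309). Ddx55, a helicase of the large subunit pathway, had a log2 fold change of -0.099 ± 0.046 (SE) and overlapping groups.

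Of 10 genes of the MYC network, 8 were abundant enough to test, Mycn and Mycl being below the limit. Myc itself had 89.8, 92.0, 86.1 and 92.1 TPM in the control dishes and 100.1, 99.3, 96.4 and 101 TPM in the exposed dishes. Every exposed dish lay above every control dish (log2 fold change 0.14 ± 0.030 (SE), limma unadjusted p = 0.00104, adjusted p = 0.122). The scaled log2 fold change of Myc was 0.12 (limma unadjusted p = 0.00541). Max, its partner, had 40.5, 38.2, 38.4 and 41.3 TPM in the control dishes and 40.7, 41.5, 57.4 and 43.2 TPM in the exposed dishes. Exposed dish 3 stood far above the others and the groups overlapped (log2 fold change 0.19 ± 0.096, SE). The repressors Mxd1, Mxd3, Mxd4, Mxi1, Mnt and Mga had log2 fold changes of -0.056, 0.11, 0.0062, 0.052, -0.054 and 0.029, with overlapping groups and no unadjusted limma p under 0.05. Whether Myc and the nucleolar genes vary together between dishes was not tested.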

How the data were processed

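RNA from 4 control and 4 exposed dishes of AML12 cells had been sequenced by the authors on a NovaSeq after stranded poly(A) library preparation. The deposited values are TPM, 1 table of 55401 genes per dish; the submitters' processing notes name Trimmomatic 0.39, STAR 2.7.4a, RSEM 1.3.3 and mm10, without roles or settings, and the gene annotation is not given in the sources used here. Since TPM keeps no depth, no counting interval or detection floor can be given, and read-count tests were not run. The 12122 genes that reached 1 TPM in 4 or more dishes were compared as log2(TPM + 1) with limma 3.58.1 (lmFit, eBayes with a trend, R 4.3.3) and Benjamini-Hochberg adjustment, all genes together. Fold changes are on that scale, which understates those of low genes. The steps were tested on simulated data with far larger differences than those of the nucleolar genes. That check does not show whether differences as small as these would be recovered.

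The 43 nucleolar genes, the further lists and the motif CACGTG were chosen with earlier results of these data known. Dish values were given for the 12 nucleolar genes with the smallest p-values, the 3 most and 2 least abundant, those with an outlying dish, and further examples chosen after their values were seen. Of the further list, the 3 smallest p-values in each direction were named. Identical values made up at most 3.79% of any pair of dishes. Dishes with the same replicate number did not deviate together (correlations of deviations from -0.0419 to 0.0258), so no block entered the test. Near-identical copies had at least 95% identity over at least 80% of a transcript of at least 200 bases (BLAST 2.17.0). Of the identifiers, 55141 were located with GENCODE M21 (GRCm38). Alternatives covered the pseudocount, filter, scaling, variance trend, replicate block and each dish left out.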

Additional observations from a re-analysis of the deposited data

Results flagged for a closer look

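The 43 genes in both conditions make 86 groups of 4 dishes. Dixon's test at its 95% critical value singled out 1 dish in 3 of them, and about 4.3 (1 in 20) arise by chance. All were exposed dishes with a high value. Gar1 had 113.32 TPM in exposed dish 3, where the other exposed dishes held 107 to 108 TPM. Noc3l had 29.06 TPM in exposed dish 2, where the others held 28.3 to 28.4 TPM. Polr1b had 35.92 TPM in exposed dish 2, where the others held 34.6 TPM each. Exposed dish 2 had the lowest mitochondrial share of TPM (5.99%) and the largest median-of-ratios divisor (1.03).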

How the results depend on the processing

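Of 1077 values of single nucleolar genes under the alternatives, 1056 kept their direction and 21 reversed, in 5 genes that had not reached an unadjusted p of 0.05. The filters, eBayes without a trend and the block leave each log2 fold change unchanged, so those values could not reverse. The block with scaling repeats the scaled values. The count of kept directions includes all of these. Pes1 reversed with median-of-ratios scaling (-0.0016, also with the replicate block), without mitochondrial genes (-0.0086), with upper-quartile scaling (-0.0125) and in scaled values with single dishes left out, where it ran from -0.0196, up to 0.0376 with TPM. Imp3 reversed without mitochondrial genes (-0.0002), with upper-quartile scaling (-0.0042) and with single dishes left out (-0.0396 without control dish 3, -0.0077 without exposed dish 2, and from -0.0653 in scaled values up to 0.0725). Wdr43, Rrs1 and Utp18 reversed only in scaled values with 1 dish left out, with log2 fold changes from -0.0058 to 0.1162, -0.0118 to 0.0748 and -0.021 to 0.0791 over both scalings.

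Median-of-ratios scaling, with or without the block, gave the 43 genes a median log2 fold change of 0.0785 and the further list 0.0428, and all genes 0.005. In the further list it put 21 genes higher and 4 lower at an unadjusted p under 0.05 (22 and 3 with the block), and over all genes 823 higher and 669 lower with 1 adjusted call (820, 658 and 0 with the block). Rescaled without mitochondrial genes, the same medians were 0.0715, 0.0363 and -0.0015, 14 nucleolar genes had groups that did not overlap, and the counts were 19 higher and 4 lower in the further list and 693 and 675 over all genes. Upper-quartile scaling gave medians of 0.0675, 0.0324 and -0.0053, 19 nucleolar genes higher and 15 not overlapping, 16 higher and 4 lower in the further list, and 588 and 801 over all genes with 1 adjusted call. Groups that did not overlap were not counted over all genes without mitochondrial genes or with upper-quartile scaling. With a TPM above 0 in any dish as the filter, the nucleolar median exceeded that of all genes by 0.0976 (0.0749 as reported). The median of all genes was then 0.0036, with 1733 genes higher and 832 lower at an unadjusted p under 0.05. A TPM of at least 1 in every dish and eBayes without a trend each gave 1 adjusted call among all genes. The pairing by replicate number as a block gave 28 nucleolar genes higher, 0 lower and a median of 0.1012, with 0 adjusted calls.

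With each dish left out, 23 to 30 nucleolar genes were higher (18 to 21 after scaling, a combination added after the data were seen). Groups did not overlap in 26 to 32 (19 to 23 after scaling). That count cannot fall when a dish is removed, and it was not made over all genes. The nucleolar median ran from 0.0791 to 0.1027 (0.0651 to 0.0794) and exceeded that of all genes by 0.0611 to 0.0752 (0.0592 to 0.0742). The further list had 28 to 37 higher (15 to 25), 1 to 3 lower (1 to 4) and a median of 0.057 to 0.0725 (0.038 to 0.0508). All genes had 1066 to 1625 higher (638 to 846), 330 to 513 lower (556 to 725), 0 to 2 adjusted calls (0 to 2) and a median of 0.0156 to 0.0368 (0.003 to 0.0067). Adding near-identical copies, also chosen after the data were seen, kept the direction of Npm1 and Nop56. The causes of these differences were not tested. With 4 dishes a group, an exact two-sided permutation test of 1 gene cannot go below p = 0.0286, and the unknown depth leaves counting error unmeasured.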
